A study of Arabidopsis thaliana with 24 samples.

Results

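The genes described here are 52 nuclear genes of Arabidopsis thaliana that encode parts of the photosynthetic apparatus, chosen by a fixed list of locus IDs. They are 14 LHCB and 4 LHCA antenna genes, 12 photosystem I genes, 10 photosystem II genes, 3 electron carrier genes, 5 genes of the Rubisco small subunit and Rubisco activase, and 4 other Calvin cycle genes. The deposited tables held 23865 genes in all. In chloroplasts, LHCB proteins pass light energy mainly to photosystem II and LHCA proteins to photosystem I. Photosystem II splits water, the Rieske protein of the cytochrome b6f complex and plastocyanin carry the electrons on, and photosystem I reduces ferredoxin. The Calvin cycle then uses the ATP and NADPH made in the light to fix carbon, and Rubisco and the antenna hold much of the nitrogen of a leaf.

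Messenger RNA was sequenced from whole seedlings in 24 libraries, 3 for each of 8 groups. Seedlings had 7 days with 7 mM KNO3 and 2 days without nitrogen before a treatment of 3 h, and all groups shared this nitrogen starvation. Wild-type Col-0 received mock, 10 mM KNO3, 0.5 mM H2O2, or KNO3 and H2O2 together, while hbi-q and nlp7-1 each received mock or KNO3. Titles of the deposited comparisons write KCL for mock and KCL_H2O2 for H2O2 alone in the comparison with KNO3 and H2O2. They give no KCL concentration. The nlp7-1 mutant is affected in NLP7, a transcription factor of the nitrate response, and hbi-q in HBI genes of the bHLH transcription factor family that the labels do not name one by one. The series title names reactive oxygen homeostasis under HBI factors and its place in nitrate signal transduction as the question. The deposited tables hold 1 fold change per gene and comparison and no value per library, so the values below are log2 fold changes ± standard error (SE). A gene was called higher or lower when it passed a DESeq2 adjusted p of 0.05 with a 2-fold change or more, the study's own criterion. Wild type and hbi-q had all 52 members in their tables of 22954 genes, nlp7-1 had 51 of 22610, and KNO3 with H2O2 against H2O2 had 52 of 22302. A further table, H2O2 against mock in wild type, lists only 1810 called genes and held 5 members. Standard errors had a median over the members of 0.111 in wild type and hbi-q, 0.233 in nlp7-1 and 0.0894 in KNO3 with H2O2. Whole seedlings hold roots and shoots, and fewer green cells cannot be told apart from less RNA per cell.

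Some members sit side by side in the genome. Promoters of 3 are shown because results below turn on them: RBCS2B rose in all 4 nitrate comparisons, and LHCB1.4 and LHCB1.5 were higher with H2O2. Positions are from the TAIR10.1 annotation, matched by locus ID, since the deposited tables hold none. RBCS3B, RBCS2B and RBCS1B lie in tandem on the minus strand of chromosome 5, with 2264 bases between RBCS3B and RBCS2B and 1095 between RBCS2B and RBCS1B. LHCB1.5 and LHCB1.4 lie head to head on chromosome 2 with 1038 bases between them, and LHCB1.2, LHCB1.1 and LHCB1.3 lie together on chromosome 1. Below are the 250 bases before the annotated gene start of RBCS2B (chr5:15382072-15382321, minus strand), LHCB1.4 (chr2:14524357-14524606, plus strand) and LHCB1.5 (chr2:14523569-14523818, minus strand). Capitals mark CACGTG (the G-box), GATAAG or its reverse complement CTTATC (the I-box) and CCAAT.
RBCS2B: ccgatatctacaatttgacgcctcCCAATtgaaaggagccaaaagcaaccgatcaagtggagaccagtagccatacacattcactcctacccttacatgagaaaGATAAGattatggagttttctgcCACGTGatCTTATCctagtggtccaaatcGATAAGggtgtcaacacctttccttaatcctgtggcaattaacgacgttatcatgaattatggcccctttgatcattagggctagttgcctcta
LHCB1.4: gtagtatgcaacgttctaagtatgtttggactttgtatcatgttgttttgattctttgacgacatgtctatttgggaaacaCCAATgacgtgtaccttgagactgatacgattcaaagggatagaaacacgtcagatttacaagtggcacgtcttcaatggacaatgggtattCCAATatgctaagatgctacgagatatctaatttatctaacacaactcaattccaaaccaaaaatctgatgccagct
LHCB1.5: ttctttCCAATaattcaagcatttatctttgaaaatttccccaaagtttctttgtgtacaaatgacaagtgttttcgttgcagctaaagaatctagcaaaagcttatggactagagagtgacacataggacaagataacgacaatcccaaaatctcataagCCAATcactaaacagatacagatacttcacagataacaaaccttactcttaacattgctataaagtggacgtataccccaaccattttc
RBCS2B has 1 G-box and 3 I-boxes in this window. The LHCB1.4 and LHCB1.5 windows have none of either, with 2 CCAAT matches each on the strand shown or its complement. RBCS1B also rose in all nitrate comparisons, but its window of this length has no match to any of these motifs. In the longer window before the start codon, described below, LHCB1.4 and LHCB1.5 have 1 I-box each and RBCS1B has 2. A link between motifs and responses was not tested.

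The G-box is a motif bound by bHLH and bZIP transcription factors, and the I-box is a motif of light-regulated promoters. Both strands were searched, and none of the 3 motifs contains another. In the 250 bases before the gene start, CACGTG was in 10 of 52 members (19.2%) against 6.49% of 27443 promoters of the same length. GATAAG was in 13 members (25.0%) against 12.3%, and CCAAT in 34 members (65.4%) against 46.0%. Annotated gene starts vary between copies, so the 500 bases before the start codon were searched as well, a window chosen after the data were seen. The most downstream annotated start codon was used, so this window can lie partly inside the annotated gene, as both G-boxes of PSBP1 do. There CACGTG was in 23 members (44.2%) against 8.72% of genes, GATAAG in 37 (71.2%) against 23.6%, and CCAAT in 46 (88.5%) against 67.8%. Members of several paralogue groups carried the G-box, shown here as 30-base windows with the G-box, and any I-box, in capitals: RBCS2B at chr5:15382177-15382206, RBCS3B at chr5:15378506-15378535, RBCS1A at chr1:25049491-25049520, PSAH1 at chr3:5469559-5469588, PSAH2 at chr1:19454719-19454748, PSBO1 at chr5:26568563-26568592 and PSBO2 at chr3:18892458-18892487.
RBCS2B: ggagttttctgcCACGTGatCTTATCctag
RBCS3B: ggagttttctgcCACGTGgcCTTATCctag
RBCS1A: ggaattatcttcCACGTGgcattattccag
PSAH1: cctactagattcCACGTGgcattttccaag
PSAH2: ctttttataatcCACGTGgcatttcctaag
PSBO1: ttcagatttcgaCACGTGgcaacaaaaaaa
PSBO2: atcagctttagaCACGTGgctattgatcga
In RBCS2B the G-box began 216 bases before the start codon, in RBCS3B 217 and in RBCS1A 259, while the RBCS1B window had no match to these letters. The median wild-type nitrate response was 0.71 over the 23 members with a G-box before the start codon and 0.88 over the 29 without, from the authors' deposited table. For nlp7-1 these medians were 0.07 and 0.29 in the authors' deposited table. The ranges of both sets overlapped in all 4 nitrate comparisons.

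Levels are compared between genes per kilobase of transcript, as the authors' base mean (the mean of normalised counts over the libraries of a fit) in the joint table of wild type and hbi-q. RBCS1A, 1 of 4 genes of the Rubisco small subunit, was highest at 19197 normalised counts per kilobase in the authors' deposited table, and only 19 of 22914 genes stood above it. PSBR, a small photosystem II subunit, followed at 9861 and LHCB1.3 at 7360 in the authors' deposited table. Copies differed widely. Among the LHCB1 genes, which encode the main trimeric antenna protein, LHCB1.5 stood at 4254 normalised counts per kilobase, LHCB1.2 at 533, LHCB1.1 at 163 and LHCB1.4 at 149 in the authors' deposited table. LHCB2.3 was lowest at 6.05 normalised counts per kilobase in the authors' deposited table, so its fold changes carry the widest errors. The members made up 0.794% of summed base means in the wild-type and hbi-q table. The tables give no SD for these levels, so the order of neighbours in it was not tested.

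Nitrate raised a large share of these genes in wild type. The authors' deposited table called 21 of 52 members higher and 0 lower, where 9.44% of all genes were called higher and 5.51% lower. By adjusted p alone, the authors' deposited table had 44 members higher and 1 lower, against 29.7% and 28.5% of all genes. The members' median log2 fold change was 0.85, and that of all genes was -0.01, in the authors' deposited table. The plot of all members by comparison shows these values.

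All 4 genes of the Rubisco small subunit rose, and RBCS1B and RBCS2B had the highest values among the Rubisco, activase and other Calvin cycle members. RBCS1B (AT5G38430) rose by 2.59 ± 0.22 (6.0-fold, adjusted p = 3.17e-30) and RBCS2B (AT5G38420) by 2.38 ± 0.17 (5.22-fold) in the authors' deposited table. RBCS3B (AT5G38410) rose by 1.25 ± 0.18 and RBCS1A (AT1G67090), the copy with the most RNA, by 1.03 ± 0.15 in the authors' deposited table. RCA, which encodes the activase that frees the Rubisco active site, was at 0.99 ± 0.10 in the authors' deposited table, just under the 2-fold minimum. Of the other Calvin cycle genes, PRK (AT1G32060), whose enzyme makes the CO2 acceptor ribulose bisphosphate, rose by 1.37 ± 0.10 in the authors' deposited table. GAPA, a subunit of chloroplast glyceraldehyde-phosphate dehydrogenase, rose by 1.14 ± 0.09, and GAPB, the partner subunit, had the lowest value, 0.67 ± 0.09, in the authors' deposited table.

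The antenna genes spread more widely. LHCB1.1 (AT1G29920) rose by 2.38 ± 0.15 (5.19-fold, adjusted p = 4.42e-58), and LHCB4.3 (AT2G40100), an isoform of a minor antenna protein, had the lowest value of all members at -0.79 ± 0.13, both in the authors' deposited table. LHCB1.2, LHCB2.1, LHCB3, LHCB4.2 and LHCB6 were also called, so that 6 of 14 LHCB genes rose in the authors' deposited table. Of the 4 LHCA genes, LHCA4 rose by 1.06 ± 0.09, and LHCA2 was lowest at 0.10 ± 0.11 in the authors' deposited table. In photosystem I, PSAD2, which encodes the docking subunit for ferredoxin, was highest at 1.44 ± 0.12 and PSAH1 lowest at 0.24 ± 0.12 in the authors' deposited table. In photosystem II, PSBO2 (AT3G50820), an isoform of the protein that stabilises the manganese cluster, rose by 1.69 ± 0.10 (adjusted p = 3.33e-60), and PSBR had the lowest value at 0.20 ± 0.17, in the authors' deposited table. Plastocyanin genes rose, with PETE2 at 1.43 ± 0.18 and PETE1 at 1.04 ± 0.16, and the Rieske gene PETC was at 0.50 ± 0.11 in the authors' deposited table.

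**Figure D1:**
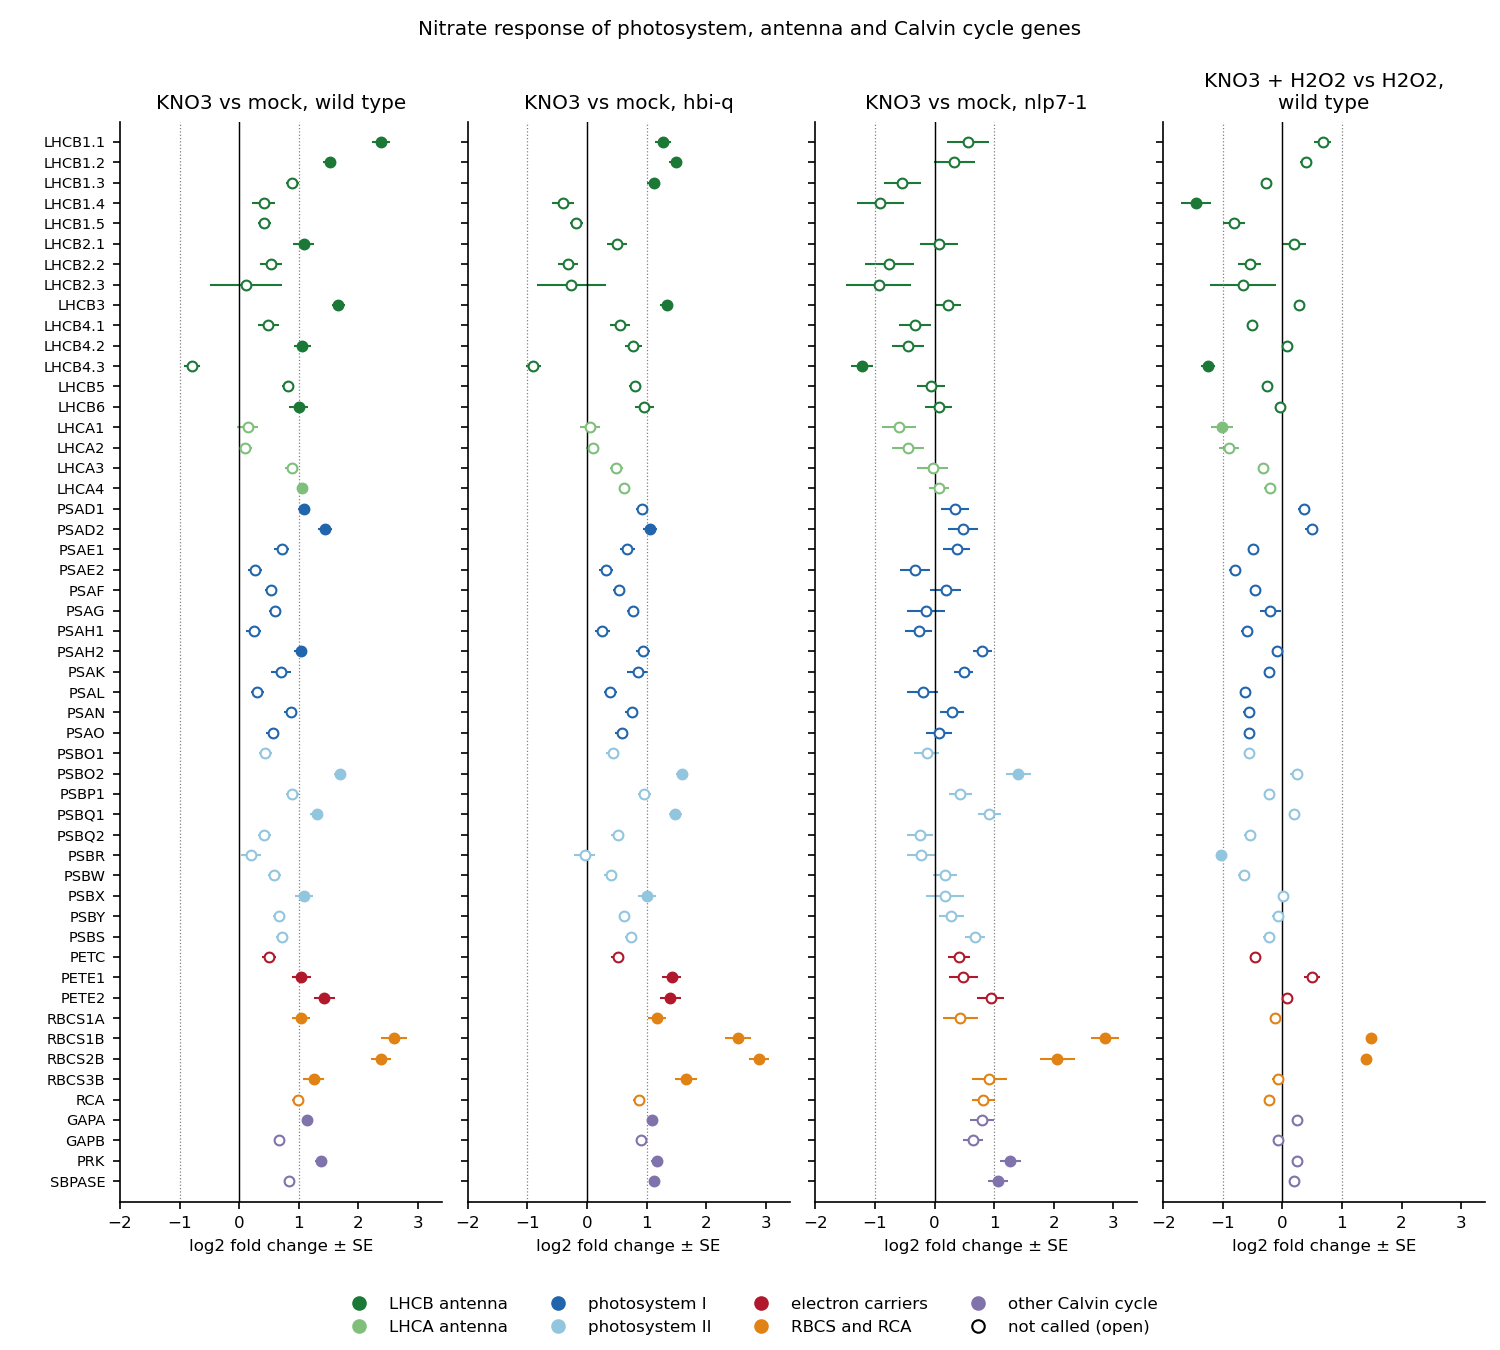
Log2 fold change with its SE for each of the 52 members (rows, coloured by role) in 4 nitrate comparisons (columns), from the authors' deposited tables. Filled points were called at an adjusted p under 0.05 and 2-fold (dotted lines), and open points were not. Filled points to the right number 21, 17, 5 and 2 from left to right, and those to the left number 0, 0, 1 and 4.

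Several paralogues that encode the same subunit had unequal values in wild type. PSBO2 stood at 1.69 ± 0.10 against 0.44 ± 0.11 for PSBO1 in the authors' deposited table, although PSBO1 had the higher level, 3664 against 677 normalised counts per kilobase. PSBQ1 stood at 1.30 ± 0.11 and PSBQ2 at 0.42 ± 0.11 in the authors' deposited table, both for an extrinsic protein of the oxygen-evolving complex. PSAH2 stood at 1.03 ± 0.11 and PSAH1 at 0.24 ± 0.12 in the authors' deposited table, for a subunit where mobile antenna can dock. PSAE1 stood at 0.71 ± 0.12 and PSAE2 at 0.26 ± 0.12 in the authors' deposited table. PSAD2 and PSAD1 stood at 1.44 ± 0.12 and 1.08 ± 0.10 in the authors' deposited table. In nlp7-1 PSBO2 was at 1.40 ± 0.21 and PSBO1 at -0.13 ± 0.21, and PSBQ1 was at 0.92 ± 0.19 and PSBQ2 at -0.24 ± 0.22, in the authors' deposited table. PSAH2 was at 0.80 ± 0.16 and PSAH1 at -0.27 ± 0.23 there, and PSAE1 at 0.37 ± 0.23 and PSAE2 at -0.33 ± 0.25, by the authors' deposited table. For KNO3 with H2O2 against H2O2, PSBO2 was at 0.24 ± 0.11 and PSBO1 at -0.56 ± 0.09, and PSBQ1 was at 0.20 ± 0.08 and PSBQ2 at -0.55 ± 0.09, in the authors' deposited table. Differences between paralogues within a comparison were not tested, because their errors come from the same libraries. The LHCB1 genes and RBCS1B, RBCS2B and RBCS3B were taken as near-identical copies without a sequence comparison. LHCB2.1 and LHCB2.2 were not in this set. Reads shared between such copies make their separate values uncertain.

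In hbi-q, the authors' deposited table called 17 of 52 members higher and 0 lower, beside 10.1% and 6.06% of all genes. Of the 21 members called higher in wild type, 15 (71.4%) were called higher in hbi-q as well, beside 81.6% of the 2167 genes called higher in wild type. RBCS2B had the highest value, 2.89 ± 0.17 (7.42-fold), and RBCS1B was at 2.53 ± 0.22 in the authors' deposited table. RCA was lowest of that group at 0.88 ± 0.10 in the authors' deposited table. PRK, at 1.17 ± 0.10, and SBPASE, a Calvin cycle phosphatase at 1.13 ± 0.09, rose in the authors' deposited table, and GAPB was at 0.91 ± 0.09. LHCB1.2 led the antenna at 1.49 ± 0.11, and LHCB4.3 was again lowest at -0.90 ± 0.13 in the authors' deposited table. LHCA4 stood at 0.63 ± 0.09 and LHCA1 at 0.05 ± 0.17 in the authors' deposited table. The extremes of photosystem I were PSAD2 at 1.06 ± 0.12 and PSAH1 at 0.26 ± 0.12, and those of photosystem II were PSBO2 at 1.59 ± 0.10 and PSBR at -0.04 ± 0.17, in the authors' deposited table. PETE1 was at 1.42 ± 0.16, PETE2 at 1.40 ± 0.18 and PETC at 0.52 ± 0.11 in the authors' deposited table.

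Nitrate responses of hbi-q and wild type were compared gene by gene, as the difference of log2 fold changes over its combined SE with a normal test adjusted over all genes. In hbi-q 5 members had a lower response and 0 a higher one, beside 3.49% and 2.13% of all genes, and all 5 were antenna genes. LHCB1.1 differed by -1.09 ± 0.20 (adjusted p = 3.05e-06), from 2.38 in wild type to 1.28 in hbi-q. LHCB2.2 differed by -0.85 ± 0.25 (adjusted p = 0.0158), LHCB1.4 by -0.80 ± 0.27 (0.0487), LHCB1.5 by -0.60 ± 0.16 (0.00425) and LHCA4 by -0.42 ± 0.13 (0.0253). LHCB2.2, LHCB1.4 and LHCB1.5 were above 0 in wild type, at 0.53, 0.41 and 0.42, and below 0 in hbi-q, at -0.32, -0.40 and -0.18, in the authors' deposited tables. None of these hbi-q values passed a DESeq2 adjusted p of 0.05 (0.101, 0.0603 and 0.152), nor did LHCB1.4 in wild type (0.0546). Over all genes the test statistic had a robust SD of 1.30, and when it was divided by that SD LHCB1.1 was the 1 member left. The 5 Rubisco and activase genes had differences between -0.11 and 0.51, and the 12 photosystem I genes between -0.37 and 0.18. None of these passed the test. Of 14 shoot markers outside photosynthesis, all 14 had a difference above 0, with a median of 0.47, of which 4 passed the test, and 2 passed after division by the robust SD. Their part in the members' differences was not tested.

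In nlp7-1 fewer members were called, and none of those called higher was an antenna gene. The authors' deposited table had 5 of 51 listed members called higher and 1 lower, beside 9.03% and 6.63% of all genes. The 5 were RBCS1B at 2.86 ± 0.24 (7.27-fold), RBCS2B at 2.06 ± 0.30, PSBO2 at 1.40 ± 0.21, PRK at 1.27 ± 0.18 and SBPASE at 1.06 ± 0.17 in the authors' deposited table. The 1 called lower was LHCB4.3 at -1.22 ± 0.19 (adjusted p = 2.17e-09) in the authors' deposited table. Without the fold minimum, 4 of 5 Rubisco and activase genes and 4 of 4 other Calvin cycle genes were higher in the authors' deposited table, but 0 of 13 LHCB and 0 of 4 LHCA genes. The background of that rule was 20.6% of all genes higher and 22% lower.

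Role medians in nlp7-1 were 0.92 for Rubisco with activase and 0.92 for the other Calvin cycle genes, against -0.33 for LHCB and -0.24 for LHCA genes, in the authors' deposited table. Wild-type medians of these groups were 1.25, 0.99, 0.85 and 0.51 in the authors' deposited table. Within the LHCB genes nlp7-1 ranged up to LHCB1.1 at 0.56 ± 0.36, and within the LHCA genes from LHCA1 at -0.60 ± 0.29 to LHCA4 at 0.07 ± 0.17, in the authors' deposited table. RBCS1A was lowest of its group at 0.43 ± 0.29 in the authors' deposited table, and GAPB of its own at 0.64 ± 0.17. PSAH2 was highest in photosystem I at 0.80 ± 0.16 and PSAE2 lowest at -0.33 ± 0.25 in the authors' deposited table. In photosystem II PSBQ2 was lowest at -0.24 ± 0.22, and of the carriers PETE2 was highest at 0.94 ± 0.23 and PETC lowest at 0.41 ± 0.19, in the authors' deposited table.

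Set against wild type, 14 members had a lower nitrate response in nlp7-1 and 0 a higher one, beside 7.38% and 4.33% of all genes. They were 10 of 13 LHCB genes, LHCA3, LHCA4, PSAD1 and PSAD2. LHCB1.1 differed most, by -1.81 ± 0.39 (adjusted p = 0.000195), followed by LHCB4.2 at -1.51 ± 0.30, LHCB1.3 at -1.43 ± 0.33 and LHCB3 at -1.43 ± 0.24. LHCB1.4 differed by -1.31 ± 0.44, LHCB2.2 by -1.29 ± 0.44, LHCB1.2 by -1.19 ± 0.36 and LHCB2.1 by -1.01 ± 0.36. For LHCB3, which encodes a trimeric antenna protein, this was a change from 1.66 ± 0.11 in wild type to 0.23 ± 0.21 in nlp7-1 in the authors' deposited tables. Of the 51 members 2 were above 0, RBCS1B at 0.28 ± 0.33 and SBPASE at 0.22 ± 0.20. RBCS1A differed by -0.59 ± 0.33, GAPA by -0.35 ± 0.21 and PRK by -0.11 ± 0.21, and none of these 5 passed the test. Among genes outside the members, 4 of 15 further Calvin cycle genes and 3 of 12 photorespiration genes had a lower response and 0 a higher one. Other lists varied: of 9 further photosystem and antenna genes 1 was higher and 0 lower, with a median difference of -0.01, where the members' median was -0.54. Of 11 regulators of photosynthesis genes 4 were higher and 1 lower, with a median of 0.50. Of 15 listed genes of ATP synthase and electron transport, 0 passed in either direction, but their median was -0.30. Root markers had a median difference of -0.36, with 3 of 21 lower and 0 higher, and their part in the members' differences was not tested. The nlp7-1 test statistic had a robust SD of 1.88 over all genes, and 0 of the 14 passed when it was divided by that SD. With members left out that another gene overlaps, 8 of the 14 remained, an alternative added after seeing the data.

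Hbi-q and nlp7-1 were also compared with each other. The contrast is between the mutants, but the hbi-q values come from the joint fit with the wild-type libraries, with base means equal to those of the wild-type table. The nitrate response of 7 members was higher in hbi-q and that of 0 lower, beside 2.32% and 1.62% of all genes. LHCB1.3 differed by 1.66 ± 0.33 (adjusted p = 8.45e-05), LHCB4.2 by 1.23 ± 0.30, LHCB1.2 by 1.16 ± 0.36 and LHCB3 by 1.11 ± 0.24. PETE1 differed by 0.93 ± 0.29, LHCB6 by 0.90 ± 0.28 and LHCB5 by 0.86 ± 0.25, so 6 of the 7 were LHCB genes. After division by the robust SD of 1.60, 0 of the 7 passed.

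**Figure D2:**
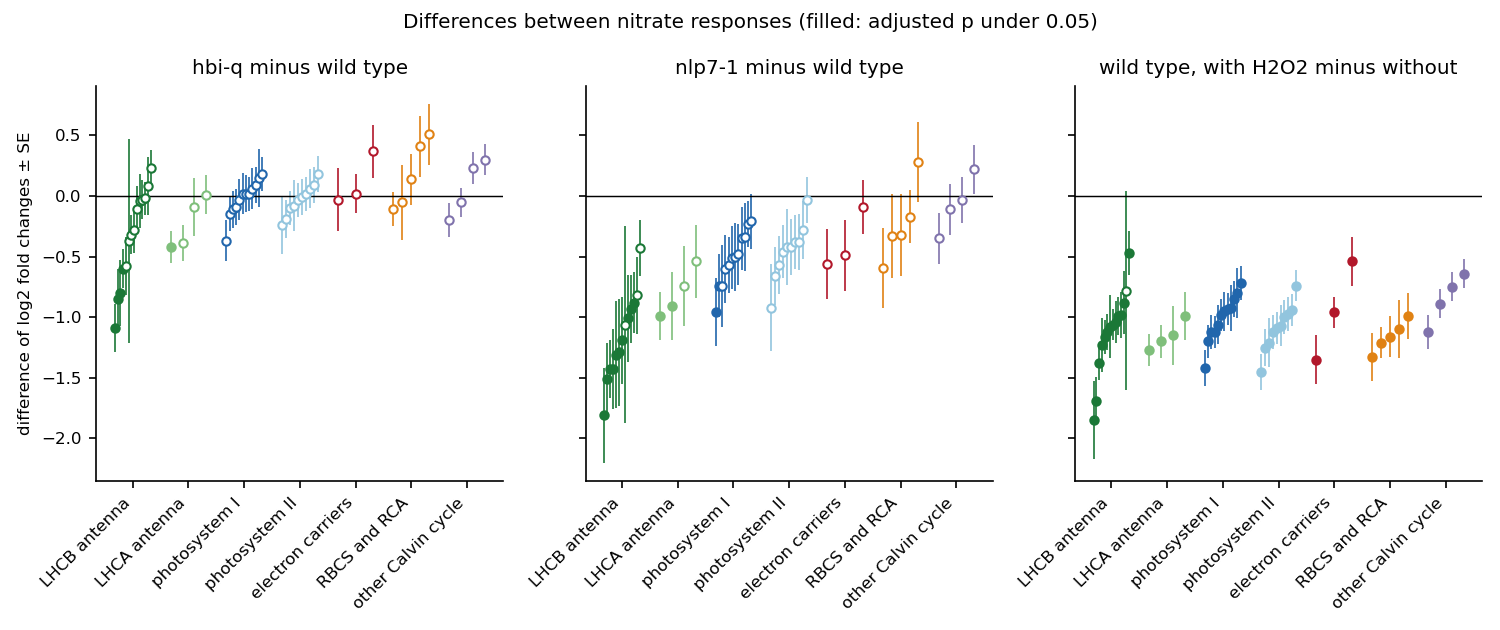
Difference of nitrate responses (log2 fold changes) with its SE for each member, grouped by role and sorted within a role, for hbi-q minus wild type, nlp7-1 minus wild type and wild type with H2O2 minus without. Filled points passed an adjusted p under 0.05. They number 5, 14 and 51 from left to right, and all lie below 0.

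Levels of these genes in the nlp7-1 table also differed from those in the wild-type and hbi-q table. The tables were normalised separately and the ratio of base means pools mock and KNO3 libraries, so it was not tested and is given relative to the median gene. Of 51 members 48 lay below the median gene, with a median ratio of 0.607. LHCA genes had a median ratio of 0.376, photosystem I genes 0.502, LHCB genes 0.595 and photosystem II genes 0.594. Rubisco with activase had 0.822 and the other Calvin cycle genes 0.760. PSAG, a photosystem I subunit near the antenna, was lowest at -2.34 on the log2 scale, followed by LHCA1 at -1.88 and PSAO at -1.62, while RBCS1B was at 0.28. The members' share of summed base means was 0.477% in the nlp7-1 table.

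Genes missing from the nlp7-1 table were mostly overlapped by another gene, while most overlapped genes were listed. LHCB1.5, with a base mean of 4446 in the authors' deposited table of wild type and hbi-q, was not listed in it, and its whole span (100%) is overlapped by AT2G08665 and AT2G34410. Among genes with a base mean of 100 or more that were missing from the nlp7-1 table, 116 of 124 with a known span were overlapped over more than 50% of it, against 219 of 16375 listed genes. The span of PSAG was overlapped over 61.4%. The 33 members without any overlap had a median ratio of 0.599, and 31 of them lay below the median gene. Root markers stood higher in the nlp7-1 table, 19 of 21 above the median gene with a median ratio of 1.49, and 14 shoot markers outside photosynthesis had a median ratio of 1.11. The part of tissue makeup in these levels was not tested.

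**Figure D3:**
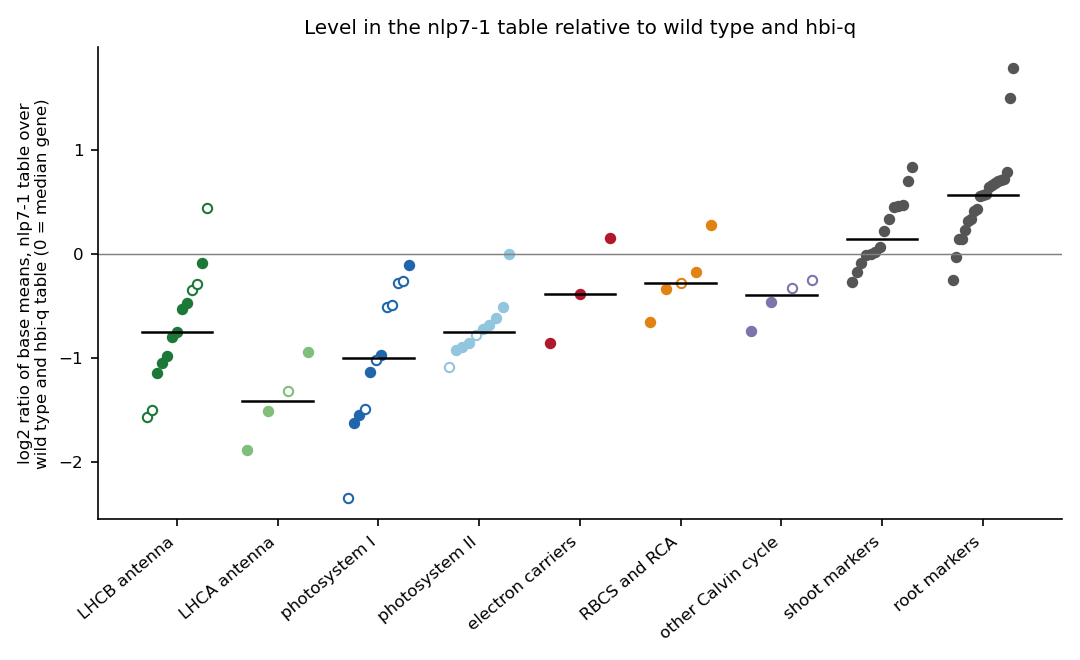
Log2 ratio of base means, nlp7-1 table over wild-type and hbi-q table, relative to the median gene (0), for members by role and for shoot and root marker genes. Open points are members whose span another gene overlaps, and bars are medians. LHCA and photosystem I genes lie lowest, with PSAG at -2.34, and 19 of 21 root markers lie above 0.

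H2O2 alone was compared with mock in wild type in a table that lists only called genes. The 47 members outside it were not listed as called and have no fold change there, so smaller changes cannot be read. The 5 members listed were all higher, where 4.98% of 22311 genes were listed as higher. Of the 44 members not taken as near-identical copies only 1, PSBO2, was listed. The others listed are LHCB1 and RBCS copies, whose separate values are uncertain. LHCB1.4 (AT2G34430) rose by 1.87 ± 0.13 (3.67-fold, adjusted p = 2.33e-45), and LHCB1.1 by 1.31 ± 0.19 in the authors' deposited table. PSBO2 rose by 1.15 ± 0.11, LHCB1.5 by 1.06 ± 0.21 and RBCS3B by 1.03 ± 0.23 in the authors' deposited table. In the same comparison 13 of 21 root markers were listed as lower, at a median of -1.58 by the authors' deposited table and with a background of 3.13%, and 0 of 14 shoot markers were listed. The part of tissue makeup in the rise of the 5 members was not tested.

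For these 5 genes the mean of each wild-type group was computed from base means and fold changes, as implied normalised counts without an SD. Mock and the H2O2 groups rest on 2-group fits, and the KNO3 level is the mock level times the wild-type fold change of the joint fit with hbi-q. LHCB1.4 went from 172 in mock to 228 with KNO3, 630 with H2O2 and 231 with both, computed from the authors' deposited tables. LHCB1.1 went from 71.3 in mock to 370 with KNO3, 176 with H2O2 and 283 with both, from the authors' deposited tables. H2O2 thus had the highest implied level of LHCB1.4, and KNO3 that of LHCB1.1. PSBO2 stood at 355, 1144, 787 and 929 in the same order, and RBCS3B at 1868, 4436, 3811 and 3599, from the authors' deposited tables. LHCB1.5 stood at 3697, 4948, 7716 and 4389, from the authors' deposited tables. With both treatments, the 5 genes had between 0.764 and 1.01 times their level with KNO3 alone, a ratio across tables that was not tested.

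**Figure D4:**
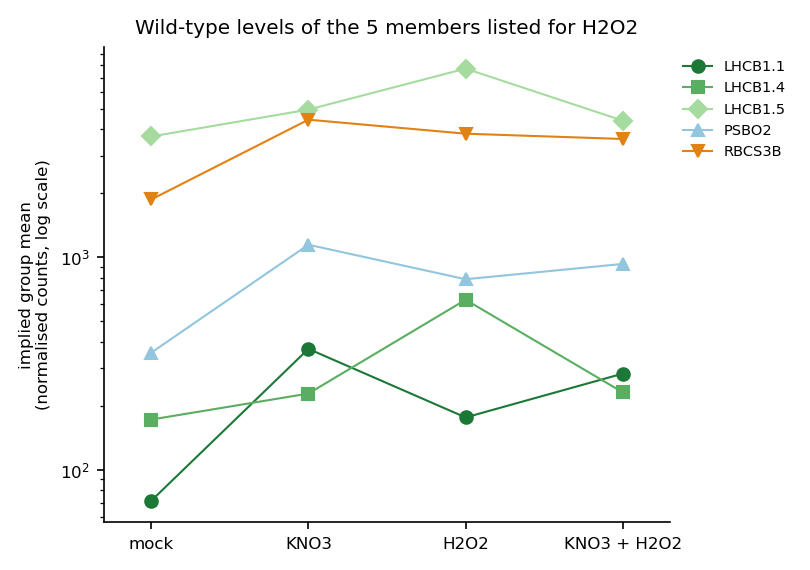
Implied mean normalised counts (log scale) of the 5 members listed for H2O2 against mock, in the 4 wild-type groups, from the authors' base means and fold changes. The tables give no error for these means. LHCB1.4 peaks with H2O2 at 630, while LHCB1.1 peaks with KNO3 at 370.

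Nitrate given together with H2O2 was compared with H2O2 alone. The authors' deposited table called 2 of 52 members higher and 4 lower, beside 6.54% and 4.14% of all genes. RBCS1B rose by 1.49 ± 0.08 (2.8-fold, adjusted p = 5.13e-81) and RBCS2B by 1.40 ± 0.08 in the authors' deposited table, and these were also the 2 members called higher in all 4 nitrate comparisons. LHCB1.4 fell by 1.45 ± 0.25, LHCB4.3 by 1.25 ± 0.12, PSBR by 1.02 ± 0.09 and LHCA1 by 1.01 ± 0.18 in the authors' deposited table. By adjusted p alone, the authors' deposited table had 12 members higher and 27 lower, against 26.6% and 26.7% of all genes. The median of the members was -0.22 in the authors' deposited table.

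Implied levels within this table put the copies side by side. They are on this table's own scale, while the implied levels of the 4 wild-type groups above are on that of H2O2 against mock, higher by a median of 0.0707 on the log2 scale. RBCS1B went from 1032 normalised counts with H2O2 to 2894 with KNO3 and H2O2, and RBCS2B from 1291 to 3402, computed from the authors' deposited table. RBCS3B was at 3631 and 3429, and RBCS1A at 25855 and 23581, computed from the authors' deposited table. PSBR went from 11869 to 5872 and LHCA1 from 3943 to 1957, computed from the authors' deposited table.

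By role, LHCA genes had a median of -0.61 with H2O2 present and photosystem I genes -0.47, while the other Calvin cycle genes had 0.23, in the authors' deposited table. LHCB1.1 was the highest LHCB gene at 0.68 ± 0.14, and LHCA4 the highest LHCA gene at -0.21 ± 0.09, in the authors' deposited table. PSAD2 was at 0.49 ± 0.11 and PSAE2 at -0.80 ± 0.10, the extremes of photosystem I, and PSBO2 led photosystem II at 0.24 ± 0.11, in the authors' deposited table. PETE1 was at 0.50 ± 0.13 and PETC at -0.46 ± 0.08 in the authors' deposited table. RCA was lowest of its group at -0.22 ± 0.09, and of the other Calvin cycle genes PRK was at 0.25 ± 0.09, GAPA at 0.25 ± 0.08 and GAPB at -0.08 ± 0.08, in the authors' deposited table.

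The nitrate response with H2O2 was below that without H2O2 for all 52 members, and 51 of them passed the test of the difference, beside 13.4% of all genes below and 11.4% above. The exception was LHCB2.3, the gene with the fewest counts. Differences ran from -1.85 to -0.47 with a median of -1.07. LHCB1.4 differed by -1.85 ± 0.32, LHCB1.1 by -1.69 ± 0.20 (adjusted p = 5.32e-15), PSBO2 by -1.45 ± 0.15 (adjusted p = 6.25e-20) and PSAN, a lumenal photosystem I subunit, by -1.42 ± 0.15. LHCB3 differed by -1.38 ± 0.14, PETE2 by -1.35 ± 0.20, RBCS3B by -1.33 ± 0.20 and LHCA4 by -1.27 ± 0.13. For 34 members the response was above 0 without H2O2 and below 0 with it. This counts signs without a threshold, and some values lay within their SE of 0. Examples were LHCB6 at -0.04 ± 0.08 with H2O2 and LHCA1 at 0.14 ± 0.17 without it, in the authors' deposited tables. Role medians lay close together, from -1.18 for LHCA genes to -0.82 for the other Calvin cycle genes. RBCS1B and RBCS2B differed by -1.10 ± 0.24 and -0.99 ± 0.19 although both still rose. After division by the robust SD of 1.97, 30 members passed. The drop was not particular to the members. Without that division, 13 of 15 further Calvin cycle genes and 12 of 16 genes of ATP synthase and electron transport passed below 0. So did 7 of 9 further photosystem and antenna genes and 9 of 12 photorespiration genes. In these lists 1 Calvin cycle gene passed above 0. The H2O2 baseline enters this difference, and for the 5 members listed for H2O2 against mock it was itself higher than mock. That list holds only called genes, so a rise of less than 2-fold in other members would not appear in it. The part of the baseline in the drop was not tested.

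**Figure D5:**
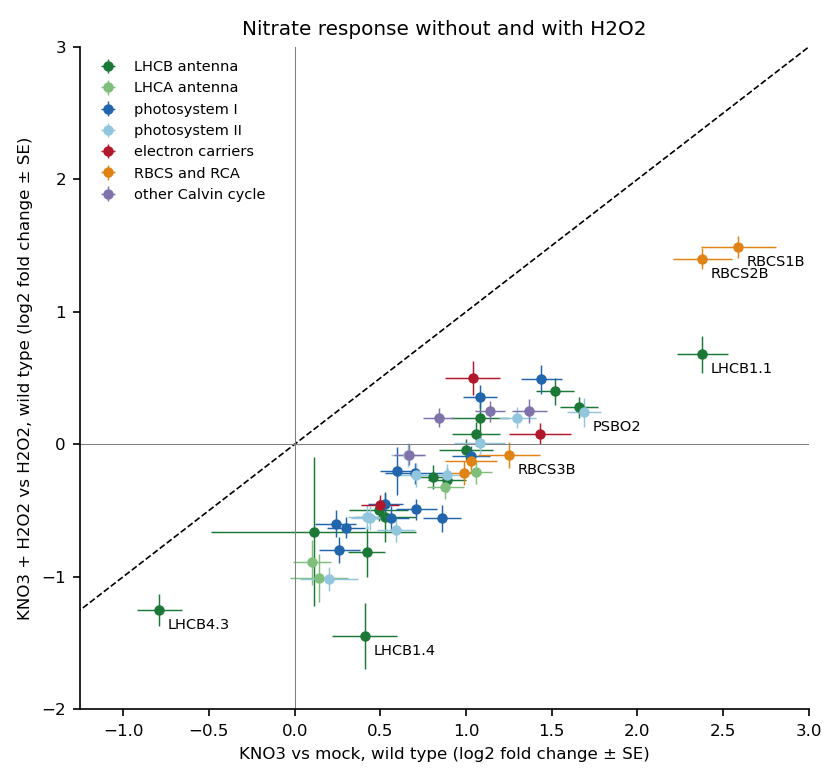
Nitrate response of each member in wild type without H2O2 (horizontal) and with H2O2 (vertical), log2 fold changes ± SE from the authors' deposited tables, coloured by role. The dashed line marks equal responses. All 52 points lie below it, and RBCS1B and RBCS2B stay above 1 on both axes.

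The comparisons share libraries: hbi-q minus wild type, nlp7-1 minus wild type and H2O2 minus none all use the wild-type nitrate response. The wild-type nitrate and H2O2 tables share the mock libraries, and both H2O2 tables share the H2O2 libraries. Similar signs across them are therefore not independent of each other.

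Other genes of photosynthesis were read from lists of the same apparatus. Of 9 further photosystem and antenna genes, 4 were called higher and 1 lower in wild type, led by PSB27, a photosystem II assembly factor, at 1.67 ± 0.13 in the authors' deposited table. PSBTN was at 1.54 ± 0.12 and Lhca6 at 1.33 ± 0.18 in the authors' deposited table. Counts of higher and lower were 5 and 0 in hbi-q, 3 and 0 in nlp7-1, and 0 and 1 for KNO3 with H2O2. Lhca6 was at 1.46 ± 0.31 in nlp7-1 in the authors' deposited table, unlike the 4 LHCA members.

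Among 16 genes of ATP synthase and electron transport, 3 were called higher and 2 lower in wild type. ATPD, a subunit of the ATP synthase, rose by 1.76 ± 0.10, and the ferredoxin genes FED A and FD1 by 1.57 ± 0.10 and 1.27 ± 0.12, in the authors' deposited table. Counts were 3 and 2 in hbi-q, 2 and 0 in nlp7-1, and 0 and 3 for KNO3 with H2O2. With H2O2, TAP38 and STN7, a phosphatase and a kinase of antenna proteins, fell by 1.23 ± 0.11 and 1.21 ± 0.10, and PGRL1B by 1.11 ± 0.11, in the authors' deposited table. Without H2O2, STN7 and PGRL1B also fell with nitrate, by 1.05 ± 0.08 and 1.08 ± 0.10 in wild type and by 1.04 ± 0.08 and 1.02 ± 0.10 in hbi-q, and TAP38 was at -0.69 ± 0.09 in wild type, in the authors' deposited tables.

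Of 15 further Calvin cycle genes, 6 were called higher and 0 lower in wild type and in hbi-q alike, 3 and 0 in nlp7-1, and 1 and 0 for KNO3 with H2O2. AT3G60750, a transketolase, rose by 2.29 ± 0.05 in wild type and by 1.52 ± 0.05 with H2O2 present in the authors' deposited tables. CP12-2, a regulator of PRK and of the dehydrogenase, rose by 2.29 ± 0.16 with nitrate in wild type and by 1.47 ± 0.16 with H2O2 against mock in the authors' deposited tables. GAPA-2 rose by 1.65 ± 0.10 in wild type in the authors' deposited table. Of 12 listed photorespiration genes, 3, 4, 1 and 0 were called higher in the 4 nitrate comparisons, and 0 lower in each. AT1G80380 was at 1.56 ± 0.08, the aminotransferase gene GGT1 at 1.44 ± 0.06 and the glycolate oxidase gene GOX2 at 1.23 ± 0.10 in wild type in the authors' deposited table. None of 12 plastid-encoded genes was listed in any table.

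Of 11 regulators of photosynthesis genes, 2 were called higher and 2 lower in wild type, 3 and 2 in hbi-q, 4 and 0 in nlp7-1, and 1 and 1 for KNO3 with H2O2. CGA1, a GATA factor of chloroplast development, rose by 2.12 ± 0.10 in wild type and by 3.19 ± 0.23 in nlp7-1 in the authors' deposited tables. SIGF, a plastid sigma factor gene, rose by 1.64 ± 0.10 and SIGE, another sigma factor gene, fell by 1.52 ± 0.12 in wild type in the authors' deposited table.

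Markers of the tissues in a whole seedling stood beside the members as follows. Of 21 root markers, 2 were called higher and 1 lower with nitrate in wild type and in hbi-q, 1 and 1 in nlp7-1, and 0 and 0 with H2O2 present, where their median was 0.18 in the authors' deposited table. At an adjusted p under 0.05 with no fold minimum, the authors' deposited tables had 8 root markers higher and 3 lower there, 7 and 1 in wild type, 7 and 4 in hbi-q, and 4 and 7 in nlp7-1. For the nitrate response with H2O2 minus without, 5 root markers passed above 0 and 4 below, and 1 shoot marker above and 0 below. Of 14 shoot markers, 0 were called higher and 1 lower in wild type, 1 and 0 in hbi-q, 0 and 0 in nlp7-1, and 0 and 1 with H2O2 present. The shoot marker called lower in wild type was the guard cell channel gene KAT1 at -1.66 ± 0.10 in the authors' deposited table.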

How the data were processed

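The data were 5 deposited tables of the authors' differential expression results from 24 libraries. Per the submitters' processing notes and the series design text, reads were mapped to TAIR10 with HISAT and Bowtie2, counted with HTSeq and fitted with DESeq2. Tool versions are not given there. The deposited columns, per the file headers, are a base mean (a signal of normalised counts), a log2 fold change with its log2 standard error, a test score, and a p-value with its adjusted p-value. The score equalled the fold change over its error in all genes when checked. Library depth is unknown; base means summed to between 2.01e+07 and 2.09e+07 in the 4 full tables.

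Members were read by locus ID. Symbols, spans and sequences came from RefSeq's TAIR10.1 assembly, and the tables hold no coordinates. Calls used an adjusted p under 0.05 and 2-fold. Differences of nitrate responses were tested as z, two-sided normal, Benjamini-Hochberg adjusted over all genes in both tables (pandas 2.3.3, scipy 1.17.1). The code was first run on simulated fold changes with noise drawn from the deposited standard errors. That run could not show whether these errors are wide enough for the real data. There the robust SD of z over all genes was 1.3 to 1.97, so adjusted p-values without robust scaling may be too small. The H2O2 tables were taken as 2-group fits, because 1756 of 1761 genes gave matching H2O2 means within 0.01 of a constant log2 ratio, against 24 under a 4-group fit. Alternatives were other thresholds, centring on the median gene, robust scaling, a base mean of at least 100 and leaving out near-identical copies. Within each role the highest and lowest member, all members called lower, paralogues, and up to 8 members per difference were named, and up to 3 called genes per other list. The members and lists were chosen with earlier results of these data known. Nothing says that the 3 libraries of a group came from separate cultures beyond their labels as replicates, so p-values measure the spread between these libraries.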

Additional observations from a re-analysis of the deposited data

Results flagged for a closer look

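Nitrate responses that differed between groups by a test of the difference itself are collected here, as differences of log2 fold changes. Between hbi-q and wild type 5 members differed, which were LHCB1.1 (-1.09), LHCB2.2 (-0.85), LHCB1.4 (-0.80), LHCB1.5 (-0.60) and LHCA4 (-0.42). Only LHCB1.1 passed after division by the robust SD.

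Between nlp7-1 and wild type 14 members differed, led by LHCB1.1 (-1.81), LHCB4.2 (-1.51), LHCB1.3 (-1.43), LHCB3 (-1.43), LHCB1.4 (-1.31), LHCB2.2 (-1.29), LHCB1.2 (-1.19) and LHCB2.1 (-1.01). Between hbi-q and nlp7-1 7 members differed, which were LHCB1.3 (1.66), LHCB4.2 (1.23), LHCB1.2 (1.16), LHCB3 (1.11), PETE1 (0.93), LHCB6 (0.90) and LHCB5 (0.86). After division by the robust SD, 0 members passed in either of these 2 comparisons.

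Between wild type with and without H2O2 51 members differed, led by LHCB1.4 (-1.85), LHCB1.1 (-1.69), PSBO2 (-1.45), PSAN (-1.42), LHCB3 (-1.38), PETE2 (-1.35), RBCS3B (-1.33) and LHCA4 (-1.27). Division by the robust SD left 30 of them.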

How the results depend on the processing

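Of 102 counts and medians under an alternative, 71 stayed within 1.5 times the main count or the same spread, and 31 moved. Without the fold minimum, called members were 44 higher and 1 lower in wild type, 44 and 1 in hbi-q, 14 higher in nlp7-1, and 12 higher and 27 lower for KNO3 with H2O2. At 1.5-fold they were 35 higher and 1 lower in wild type, 32 and 1 in hbi-q, 13 higher in nlp7-1, and 10 lower for KNO3 with H2O2. Without near-identical copies, 11 were higher in hbi-q, 3 in nlp7-1 and 0 for KNO3 with H2O2, since RBCS1B and RBCS2B are such copies, and 2 differed between hbi-q and wild type. Of the members listed for H2O2, 1 was at least 3-fold higher, and 1 was not a near-identical copy. At an adjusted p under 0.01, the differing members were 2 for hbi-q, 5 for nlp7-1 and 3 for hbi-q against nlp7-1. With a 2-fold minimum they were 1, 8 and 4, and 29 for H2O2. With robust scaling they were 1, 0 and 0, and 30 for H2O2. Without overlapping genes 8 differed for nlp7-1, and centring left 4 between hbi-q and nlp7-1. Centring also turned the sign of LHCA3 in nlp7-1 (0.01), of LHCA2 for hbi-q (-0.01) and of PSBS (0.02) and GAPB (0.02) for nlp7-1, none of which had passed a test; the cause was not tested. LHCB2.1 and PSAD1 lost their nlp7-1 call under centring, as did LHCB1.2, LHCB6 and PETE1 for hbi-q against nlp7-1. Centring also took LHCA1 just under the 2-fold minimum for KNO3 with H2O2.

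No paired analysis was possible because the tables hold no values per library, and leaving out each replicate was not run for the same reason.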
